A study of Capra hircus with 12 samples.

Results

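The genes described are the nuclear subunit genes of respiratory complex I, taken as every row of the goat count tables whose symbol is NDUF followed by A, B, C, S or V and a number. The rule found 37 of the 28910 rows, the same 37 in the table of each cell layer, and all 37 had enough reads to be tested in both layers. RNA was sequenced from cultured goat temporomandibular joint (TMJ) cells in 12 libraries, 3 in each of 4 groups. SLC are cells of the superficial layer of the condylar cartilage and MLC are cells of the middle cartilage layer. Each layer was given IL-1β, an inflammatory cytokine, or IL-1β + LOXL2. LOXL2 is a lysyl oxidase that crosslinks collagen and elastin, and it was delivered as an Ad5-LOXL2 adenovirus overnight before 10 ng IL-1β for 1 h. The animals were female goats of 6 to 9 months, and the cells were used at passages 3 to 5 in medium with 10% serum, so every library is of passaged, IL-1β-treated cells. How many animals or separate cultures the replicates stand for is not given in the sources used here, so the p-values measure the spread between these libraries, which may be technical. For the RNA libraries it is also not given whether IL-1β cells received an empty virus, so effects of LOXL2 and of the adenovirus cannot be told apart.

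Complex I is the first and largest enzyme of the mitochondrial respiratory chain. It takes electrons from NADH, passes them along iron-sulfur clusters to ubiquinone, and pumps protons across the inner membrane. Its peripheral arm holds the N module, which oxidizes NADH, and the Q module, which reduces ubiquinone, whereas the membrane arm has a proximal and a distal part that pump protons. Core subunits carry out the chemistry and are conserved from bacteria. Accessory subunits surround and stabilize them, and the core subunits of the membrane arm are encoded by mitochondrial DNA. Cartilage cells live with little oxygen and rely largely on glycolysis, and the respiratory chain is also a source of reactive oxygen species there.

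Library totals ranged from 14158607 to 28931652 counts. Values of single genes are normalized counts, that is read counts scaled between libraries with DESeq2's median of ratios, and they compare libraries rather than genes. Expression of the goat LOXL2 gene itself did not follow the IL-1β + LOXL2 label upwards. Its normalized counts in SLC were 11583, 11647 and 11894 with IL-1β and 8541, 10124 and 10387 with IL-1β + LOXL2, and in MLC they were 14291, 16294 and 15189 with IL-1β and 15249.9, 14740.4 and 13808 with IL-1β + LOXL2. Its log2 fold change was -0.27 in SLC (edgeR adjusted p = 0.105) and -0.07 in MLC (edgeR adjusted p = 0.595). The sequence of the LOXL2 insert is not given in the sources used here, so reads from the virus may not be in this count and the gene does not check the labels. COL2A1 and COL9A1, collagens of hyaline cartilage, were at or close to 0 in all 6 SLC libraries and between 194 and 387 normalized counts in the 6 MLC libraries. PRG4, the lubricin of joint surfaces, was between 68.1 and 135 normalized counts in all 12 libraries, so it did not separate the layers. It comes from a list of 6 genes of the fibrous superficial layer, of which others did. Under IL-1β, edgeR called 3 of the 6 lower and 1 higher in MLC at an adjusted p under 0.05. Of all tested genes, 25.6% were called in either direction. Means under IL-1β were 6974 in SLC and 3911 in MLC for PDGFRB, and 230767 and 371026 for COL3A1. The first IL-1β + LOXL2 replicate stood apart within its group in both layers. By chi-square per degree of freedom, a measure of how far counts of 2 libraries differ beyond counting noise, it differed from the other replicates by 167.6 and 60.7 in SLC, against 30.7 between those, and by 15.6 and 34.9 in MLC, against 5.92 between those. Counts of called genes with LOXL2 are given with and without these libraries, whereas values of single genes are from all libraries unless stated.

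The first question was whether LOXL2 changed expression of complex I subunit genes in each layer. In SLC, the normalized counts of the 37 genes summed to 31538, 31381 and 34004 in the IL-1β libraries and to 37015, 66210.2 and 51922 in the IL-1β + LOXL2 libraries. In MLC, the sums were 32235, 32358 and 31129 with IL-1β and 36362, 42454 and 48891 with IL-1β + LOXL2. The sums of the 2 treatments did not overlap in either layer, and the first IL-1β + LOXL2 replicate lay closest to the IL-1β libraries in both. As a share of all reads, the 37 genes took 0.168% to 0.186% in the 6 IL-1β libraries, 0.206%, 0.333% and 0.276% in the SLC IL-1β + LOXL2 libraries and 0.194%, 0.226% and 0.257% in the MLC IL-1β + LOXL2 libraries. In bulk RNA, more transcript per cell and more cells with a high level cannot be told apart. Chondrocyte markers were read beside these sums, from a list of 8 genes. Their summed normalized counts in SLC ranged from 24487 to 26914 with IL-1β and from 13866 to 24313 with IL-1β + LOXL2, and in MLC from 32884 to 35698 and from 27597 to 35019, where the groups overlapped. Most of the sum was COL11A1, a cartilage collagen, at a mean of 23200 in SLC with IL-1β (log2 fold change with LOXL2 -0.53 in SLC, edgeR adjusted p = 0.117, and -0.23 in MLC, edgeR adjusted p = 0.14). Of the markers that could be tested, 4 of 5 had a negative log2 fold change in SLC and 5 of 7 in MLC. COMP, a cartilage matrix protein, went the other way, with 0.36 in SLC (edgeR adjusted p = 0.144) and a rise of 0.37 in MLC (edgeR adjusted p = 0.0283), where it was the one marker called. COL11A1 is also a long gene, spanning 229950 bases, and long genes were lower with LOXL2 in general, as given below. When each library's trend on gene span was removed, 2 of 5 markers had a negative value in SLC and 3 of 7 in MLC. The marker medians were then 0.0039 and 0.027. The part of these markers in the results on complex I was not tested.

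**Figure D1:**
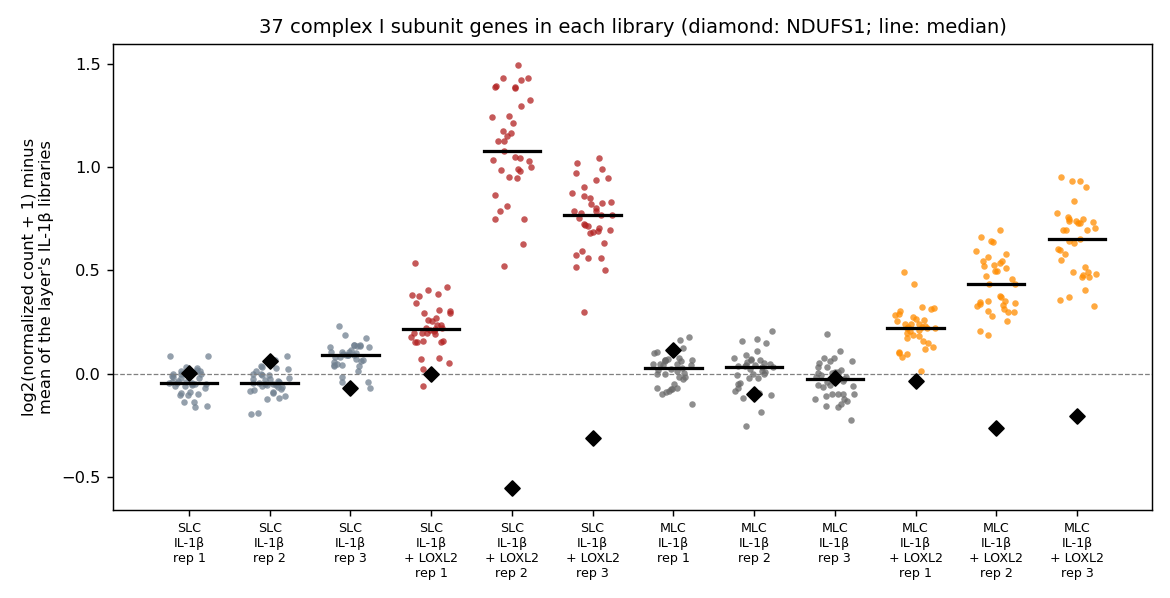
Each point is 1 of the 37 complex I subunit genes in 1 library, as log2(normalized count + 1) minus the mean of the IL-1β libraries of the same layer. Black lines are medians over the 37 genes and diamonds are NDUFS1. The medians of the IL-1β + LOXL2 libraries are 0.21, 1.08 and 0.77 in SLC and 0.22, 0.43 and 0.65 in MLC, and NDUFS1 lies below 0 in all 6 of these libraries.

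In SLC, 36 of the 37 genes had a positive log2 fold change with LOXL2 and 1, NDUFS1, had a negative one. The median was 0.74 on the log2 scale, with a range from -0.27 to 1.04, whereas the median of all 14103 tested genes was 0.013. None of the 37 passed edgeR's quasi-likelihood test at a Benjamini-Hochberg adjusted p under 0.05, the threshold for a call throughout, and neither did any other gene in SLC (0% of those tested). At an unadjusted p under 0.05, 35 of the 37 passed, against 43.3% of all tested genes. With DESeq2's Wald test, 35 were called higher at an adjusted p under 0.05, against 16.0% of all tested genes called higher, and the exceptions were NDUFS1 and NDUFV3. Without the first SLC IL-1β + LOXL2 replicate, edgeR called all 37, with 36 higher and NDUFS1 lower, the median log2 fold change was 0.93, and 31.0% of all genes were called higher and 30.8% lower. Among edgeR fits of SLC libraries alone, only the one without this library gave any call. With this library kept, an edgeR fit of all 12 libraries called 35 of the 37 higher (22.5% of all genes). In that fit every gene of each module was called, with median log2 fold changes of 0.88 in the N module, 0.84 in the Q module, 0.97 in the proximal and 1.01 in the distal membrane arm. Single genes with large values there were NDUFA3 at 1.28 and NDUFA13 at 1.22, while NDUFV3 was at 0.41.

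In MLC, the same 36 genes had a positive log2 fold change and NDUFS1 a negative one. Of these, 27 rose with LOXL2 at an edgeR adjusted p under 0.05 and none fell, against 9.81% of the 13664 tested genes that were called higher and 21.6% called in either direction. The median over the 37 genes was 0.46 on the log2 scale, with a range from -0.17 to 0.66, whereas that of all tested genes was 0.0079. DESeq2 called 29 of them higher, against 11.1% of all tested genes. Among the genes that edgeR did not call in MLC were NDUFA3, NDUFB1, NDUFB2, NDUFB3, NDUFB5, NDUFC1, NDUFS1, NDUFV2 and NDUFV3. The count of calls depended on single libraries. It was 37 without the first MLC IL-1β + LOXL2 replicate (36 higher and NDUFS1 lower, with 23.7% of all genes called higher and 24.4% lower). It was 2 without the third, both higher, against 84 of 13834 genes called higher. It was 0 without the second IL-1β + LOXL2 replicate, where none of the 13869 tested genes was called. Without the first IL-1β + LOXL2 replicate, the module medians were 0.60 (N), 0.47 (Q), 0.57 (proximal arm) and 0.55 (distal arm). Leaving out an IL-1β library of MLC gave 4 calls for the second replicate, all higher, against 212 of 13824 genes called higher. For each of the others it gave 0, and no gene at all was called (of 13853 tested without the first and 13825 without the third). Over those 6 fits the median log2 fold change was between 0.33 and 0.55. In a fit of all 12 libraries, in which the layers share one estimate of the spread, edgeR called none of the 37 genes in MLC (0% of all genes, with 27 of the 37 and 25.7% of all genes at an unadjusted p under 0.05) and 35 as higher in SLC (22.5% of all genes).

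Counted without a model, the 3 IL-1β + LOXL2 values lay above the 3 IL-1β values for 32 of the 37 genes in SLC and for 33 in MLC. Over all tested genes this held for 23.8% in SLC and 21.5% in MLC. The 5 genes whose values overlapped in SLC were NDUFB3, NDUFS1, NDUFS7, NDUFV1 and NDUFV3, and the 4 in MLC were NDUFB1, NDUFC1, NDUFS1 and NDUFS8. Of the 3 IL-1β + LOXL2 replicates, the first was the lowest for 36 of 37 genes in each layer, with NDUFS1 as the exception. The second was the highest for 35 genes in SLC and the third was the highest for 36 in MLC, so the genes shifted together from library to library.

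**Figure D2:**
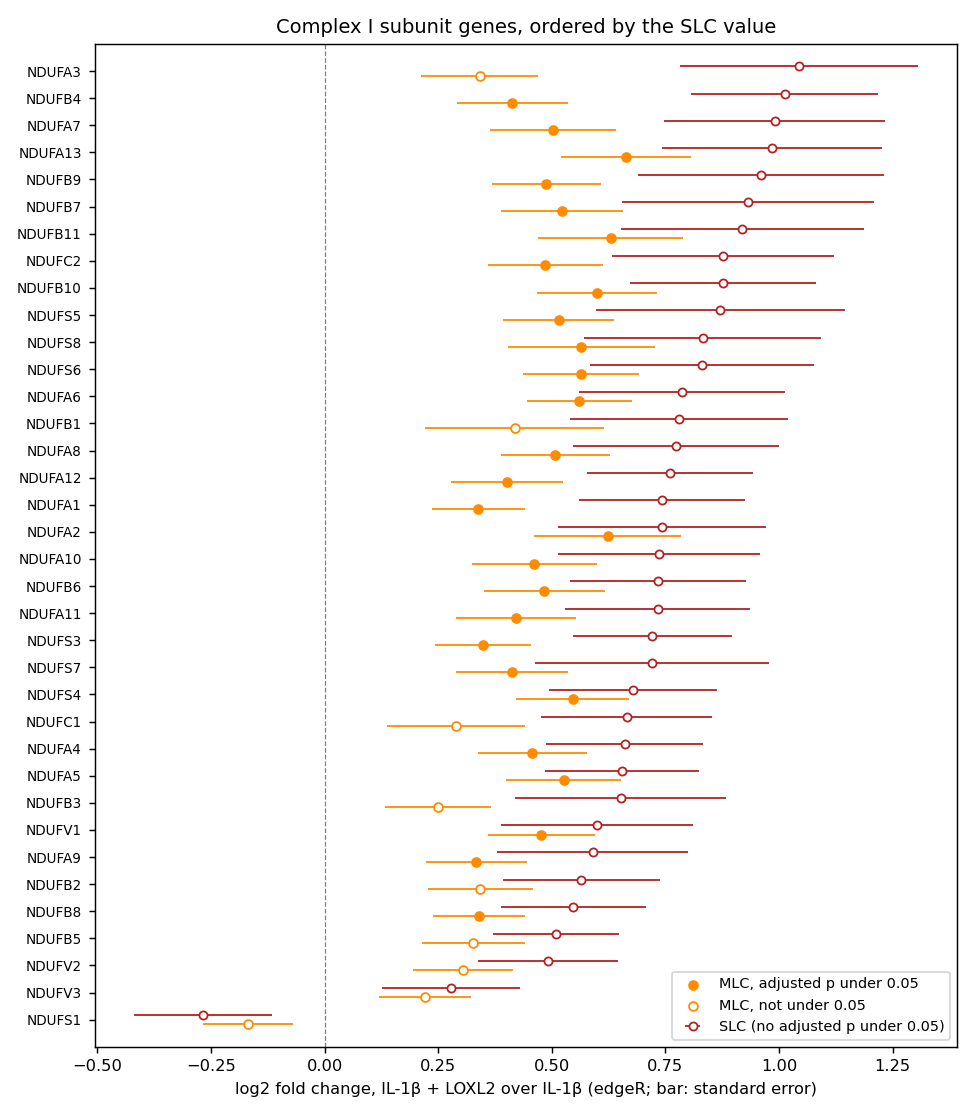
Log2 fold change of IL-1β + LOXL2 over IL-1β for 36 of the 37 genes, from edgeR, with bars of 1 standard error. Filled MLC points have an adjusted p under 0.05. NDUFA3 is at the top with 1.04 in SLC, NDUFS1 is the only gene below 0, and the MLC value is smaller in size than the SLC value for all 36 genes shown.

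The N module takes electrons from NADH. Among its 10 genes, in the fits of all 6 libraries of a layer, none was called in SLC and 7 rose in MLC, with medians of 0.71 and 0.49 on the log2 scale. Of all tested genes in these fits, 0% were called in SLC and 9.81% were called higher in MLC. NDUFV1, the core subunit that binds NADH and the flavin, had normalized counts of 2232, 2217 and 2423 with IL-1β and 2406, 4531 and 3456 with IL-1β + LOXL2 in SLC. In MLC its values were 2438, 2180.2 and 2491 with IL-1β and 2797, 3284 and 3828 with IL-1β + LOXL2. The groups overlapped in SLC (log2 fold change 0.60, standard error 0.21, edgeR adjusted p = 0.0825) and were apart in MLC (0.48, standard error 0.12, edgeR adjusted p = 0.0229). NDUFV2, a core iron-sulfur subunit, was not called, with log2 values of 0.49 for SLC (edgeR adjusted p = 0.072) and 0.30 for MLC (edgeR adjusted p = 0.0617). Among the accessory genes, NDUFA2, whose protein has a thioredoxin-like fold, had one of the larger changes of the module in MLC. Its counts there were 377, 353 and 345 with IL-1β and 414, 559 and 685 with IL-1β + LOXL2, a rise of 0.62 on the log2 scale (standard error 0.16, edgeR adjusted p = 0.0253). NDUFA7 was higher by 0.99 on the log2 scale in SLC, without passing the test (edgeR adjusted p = 0.0706) and rose in MLC by 0.50 on the log2 scale (edgeR adjusted p = 0.0286). NDUFA6, an accessory subunit of the LYR protein family, had the lowest adjusted p of the 37 genes in MLC, with a log2 fold change of 0.56 (edgeR adjusted p = 0.0195).

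NDUFS1 was the exception among the 37 genes. It is the largest core subunit and carries several of the iron-sulfur clusters of the N module. The gene lies on chromosome 2 from 41431514 to 41464964 (goat build ARS1.2, RefSeq, protein-coding). Its normalized counts in SLC were 1615, 1679 and 1536 with IL-1β and 1607, 1095 and 1297 with IL-1β + LOXL2, so the first IL-1β + LOXL2 library lay among the IL-1β values and the others below them. In MLC, they were 1603, 1384 and 1457 with IL-1β and 1442, 1234 and 1285 with IL-1β + LOXL2, and the groups overlapped. On the log2 scale LOXL2 shifted it by -0.27 in SLC (standard error 0.15, edgeR adjusted p = 0.203) and -0.17 in MLC (standard error 0.10, edgeR adjusted p = 0.224), and DESeq2 did not call it in either layer. NDUFS1 was called lower only in the fits that left out the first IL-1β + LOXL2 replicate of the layer, with -0.43 in SLC and -0.23 in MLC on the log2 scale. Its sign stayed negative in all alternative fits of both layers. In SLC, NDUFS1 was lowest in the library where most of the other genes were highest, since its shift from the IL-1β mean was -0.55 in the second IL-1β + LOXL2 replicate, where the median of the 37 genes was 1.08. In MLC, it was lowest in the second replicate, whereas most of the other genes were highest in the third.

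NDUFV3, an accessory subunit of the N module (chromosome 1, 142705607 to 142717197), had the smallest positive change in both layers. In SLC it had normalized counts of 723, 688 and 738 with IL-1β and 688, 1028 and 882 with IL-1β + LOXL2, and in MLC 815, 840.0 and 794 with IL-1β and 873, 931 and 1055 with IL-1β + LOXL2. The groups overlapped in SLC and were apart in MLC. Its log2 fold change was 0.28 in SLC (standard error 0.15, edgeR adjusted p = 0.191) and 0.22 in MLC (standard error 0.10, edgeR adjusted p = 0.127).

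NDUFS4, an accessory subunit of the N module needed for its stable attachment and mutated in Leigh syndrome, lies on chromosome 20 from 25442776 to 25556706. Its normalized counts in SLC were 831, 828 and 921 with IL-1β and 1013, 1708 and 1401 with IL-1β + LOXL2. In MLC they were 646, 640.3 and 553 with IL-1β and 764, 894 and 1029.5 with IL-1β + LOXL2. The treatments did not overlap in either layer. On the log2 scale the LOXL2 effect was 0.68 in SLC (standard error 0.18, edgeR adjusted p = 0.0706) and 0.55 in MLC (standard error 0.12, edgeR adjusted p = 0.0205).

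The Q module passes electrons to ubiquinone. Among its 6 genes none was called in SLC and 5 rose in MLC, with medians of 0.69 and 0.38 on the log2 scale. The shares of all tested genes were 0% called in SLC and 9.81% called higher in MLC. NDUFS8, a core subunit with a pair of iron-sulfur clusters, had counts in MLC of 1476, 1351 and 1245 with IL-1β and 1471, 2026 and 2533 with IL-1β + LOXL2. The first IL-1β + LOXL2 library lay among the IL-1β values, and the gene was still called (log2 fold change 0.57, standard error 0.16, edgeR adjusted p = 0.0321). NDUFS3, a core subunit next to the ubiquinone site, rose in MLC by 0.35 on the log2 scale (edgeR adjusted p = 0.0371). NDUFS7, which carries the last cluster before ubiquinone, rose there by 0.41 (edgeR adjusted p = 0.0363).

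In the proximal part of the membrane arm, with 9 genes, none was called in SLC and 7 rose in MLC, with medians of 0.77 and 0.46 on the log2 scale. Over all tested genes, 0% were called in SLC and 9.81% were called higher in MLC. This part of the arm held the genes with the largest change in each layer. NDUFA13, also known as GRIM-19, an accessory subunit first described in cell death induced by interferon and retinoic acid (chromosome 7, 104940939 to 104949199), had the largest change in MLC. Its normalized counts in MLC were 889.6, 836 and 909 with IL-1β and 1084, 1390.2 and 1702 with IL-1β + LOXL2, which is a rise of 0.66 on the log2 scale (standard error 0.14, edgeR adjusted p = 0.0199). In SLC they were 989, 935 and 1046 with IL-1β and 1253, 2601 and 2009 with IL-1β + LOXL2, which differ by 0.98 on the log2 scale (standard error 0.24, edgeR adjusted p = 0.0706). In both layers the treatments were apart, and the lowest IL-1β + LOXL2 value was the first replicate. NDUFA3, a small single-span accessory subunit, had the largest change in SLC, where its counts were 268, 305 and 329 with IL-1β and 392, 845 and 618 with IL-1β + LOXL2 (log2 fold change 1.04, standard error 0.26, edgeR adjusted p = 0.0706). In MLC it was not called, with 348, 273 and 314 against 363, 391 and 432 and a log2 fold change of 0.34 (standard error 0.13, edgeR adjusted p = 0.0729). NDUFC1, another small accessory subunit, was not called in MLC, with a log2 fold change of 0.29 (edgeR adjusted p = 0.174).

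All 11 NDUFB genes encode accessory subunits of the distal membrane arm, and all 11 were higher in both layers. Medians were 0.78 in SLC, with none called (0% of all genes), and 0.42 in MLC, where 7 rose (9.81% of all genes called higher). NDUFB4 had the second largest change in SLC, with 316, 325 and 336 normalized counts with IL-1β and 473, 853 and 639 with IL-1β + LOXL2. Its 3 IL-1β values lay close together and the IL-1β + LOXL2 values all lay above them (log2 fold change 1.01, standard error 0.21, edgeR adjusted p = 0.0706). In MLC, NDUFB4 rose by 0.41 (edgeR adjusted p = 0.035). NDUFB9, a LYR protein, was at 0.96 in SLC, without passing the test (edgeR adjusted p = 0.0706) and rose by 0.49 in MLC (edgeR adjusted p = 0.0229). The largest rises of the arm in MLC were those of NDUFB11, which is X-linked, at 0.63 (standard error 0.16, edgeR adjusted p = 0.0241), and NDUFB10, at 0.60 (standard error 0.13, edgeR adjusted p = 0.02). NDUFB3 and NDUFB5 lay at the other end and were not called in MLC, with log2 fold changes of 0.25 (edgeR adjusted p = 0.134) and 0.33 (edgeR adjusted p = 0.0546).

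**Figure D3:**
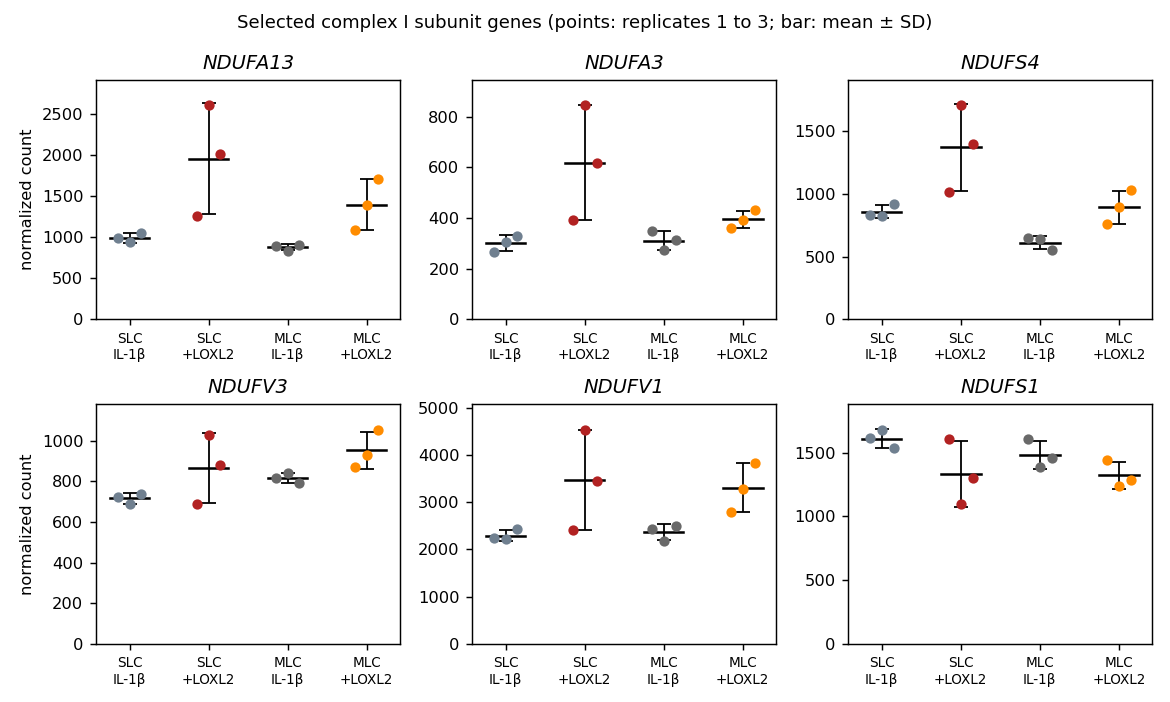
Normalized counts in each library for 6 genes described above, in the upper row NDUFA13, NDUFA3 and NDUFS4 and in the lower row NDUFV3, NDUFV1 and NDUFS1, with the mean and SD of 3 libraries and axes from 0. NDUFA13 reaches 2601 in the second SLC IL-1β + LOXL2 library against at most 1046 with IL-1β, whereas NDUFS1 is at 1095 in that library, its lowest value.

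By role, the 7 nuclear core genes had median log2 fold changes of 0.60 in SLC and 0.35 in MLC, where 4 rose. The 30 accessory genes had medians of 0.75 and 0.47, and all 30 were higher in both layers, with 23 called in MLC. Of all tested genes, 9.81% were called higher in MLC. Without the first IL-1β + LOXL2 replicate of the layer, all core and accessory genes were called, with NDUFS1 lower. In those fits 31.0% of all genes were called higher and 30.8% lower in SLC, and 23.7% higher and 24.4% lower in MLC. NDUFA4, which the symbol rule takes in although its protein is now counted as a subunit of complex IV, was not set apart. It had 1430.4, 1417 and 1565 normalized counts with IL-1β and 1761, 2844 and 2357 with IL-1β + LOXL2 in SLC, and 1194, 1236 and 1097 against 1337, 1689 and 1822 in MLC. Its log2 fold change of 0.46 in MLC (standard error 0.12, edgeR adjusted p = 0.0257) lay at the median of the 37 genes. NDUFAB1, the mitochondrial acyl carrier protein and a complex I subunit outside the rule, rose in MLC by 0.54 (standard error 0.11, edgeR adjusted p = 0.019).

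The second question was whether the layers differed. Under IL-1β, 21 of the 37 genes were higher in MLC and 16 lower, with a median log2 difference (MLC minus SLC) of 0.017. EdgeR called none of them in the fit of all 12 libraries, against 25.6% of the 14534 tested genes, and 1 of the 37 had an unadjusted p under 0.05, against 36.0% of tested genes. DESeq2 called 1 of them, NDUFS4, as lower in MLC, against 13.1% of tested genes. NDUFS4 had the largest difference, at -0.47 (standard error 0.17, edgeR adjusted p = 0.062), followed by NDUFA4 at -0.31 (standard error 0.16, edgeR adjusted p = 0.195) and NDUFS8 at 0.31 (standard error 0.25, edgeR adjusted p = 0.416). The 3 MLC values of NDUFS4 lay below the 3 SLC values, as given above. A fit on the 6 IL-1β libraries alone called 7 of the 37 genes, 3 higher and 4 lower in MLC. It called 46.9% of all genes it tested, so the 7 are not above that background. The number of calls thus differed with the set of libraries fitted, and the reason was not tested.

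With LOXL2, 35 of the 37 genes were lower in MLC than in SLC and 2 were higher, with a median log2 difference of -0.31 against -0.042 for all genes. EdgeR called 4 of them as lower in MLC, against 14.3% of tested genes called lower, which is not above that background. They were NDUFS4 at -0.62 (standard error 0.17, adjusted p = 0.0152), NDUFA4 at -0.53 (standard error 0.16, adjusted p = 0.0266), NDUFA3 at -0.65 (standard error 0.22, adjusted p = 0.0406) and NDUFB1 at -0.66 (standard error 0.23, adjusted p = 0.0464). All 4 are accessory subunits or, for NDUFA4, a subunit of complex IV. NDUFB1 had 141, 277 and 230.4 normalized counts in SLC and 115, 126 and 170.4 in MLC with LOXL2, and the layers overlapped. For NDUFS4, NDUFA4 and NDUFB1 a difference of the same sign, though not called, was already present under IL-1β, and that of NDUFB1 was -0.29 (standard error 0.24, edgeR adjusted p = 0.441). For NDUFA3 the difference under IL-1β was 0.07. The count depended on single libraries. It was 27 without the first SLC IL-1β + LOXL2 replicate (24.2% of all genes called lower), 0 without the second, 0 without the first MLC IL-1β + LOXL2 replicate, and 26 when the first replicate of both layers was left out (22.6% of all genes). It was 1 without the third SLC or the second MLC IL-1β + LOXL2 replicate. Leaving out any single IL-1β library left 2 or 3 calls. In the fit of the 6 IL-1β + LOXL2 libraries alone, none was called without the replicate block, against 962 of 14085 genes called lower. With the block, 6 were called (13.2% of all genes called lower).

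The LOXL2 effect itself was compared between layers as an interaction in all 12 libraries. The log2 fold change was lower in MLC than in SLC for 36 of the 37 genes, with a median difference (MLC minus SLC) of -0.29, against -0.022 for all genes. EdgeR called none of the 37, nor any other gene (0% of 14534), and DESeq2 called none. At an unadjusted p under 0.05, 2 of the 37 passed, against 2.26% of all genes. They were NDUFA3, at -0.72 (standard error 0.31, edgeR adjusted p = 0.959), and NDUFB4, at -0.61 (standard error 0.25, edgeR adjusted p = 0.959). NDUFA7 was next, at -0.50 (standard error 0.31, edgeR adjusted p = 0.959). A difference in response between layers was therefore not shown by this test. The median difference was -0.53 without the first SLC IL-1β + LOXL2 replicate, where 31 of the 37 genes had an unadjusted p under 0.05 (27.1% of all genes) and none an adjusted one, and -0.059 without the second. Across the 37 genes, the log2 fold changes of SLC and MLC had a Pearson r of 0.79 and a Spearman rho of 0.65, and both were 0.62 without NDUFS1. These correlations are across genes, which share libraries and are not independent replicates.

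Mitochondrial DNA encodes 7 further complex I subunits, the ND genes, which form the core of the membrane arm. Their summed normalized counts in SLC were 17788, 17783 and 17746 with IL-1β and 17080.3, 11592 and 13182 with IL-1β + LOXL2, and in MLC 24066, 23571 and 22872 with IL-1β and 21545, 21365 and 18766 with IL-1β + LOXL2. In both layers the sums with LOXL2 lay below all sums with IL-1β, whereas the nuclear sums lay above. Of the 7, 5 had a negative log2 fold change in SLC and 4 in MLC. Whether the ND genes and the nuclear genes differ in their response was not tested. None of the 7 was called in SLC, as for all genes there, and 1, ND3, rose in MLC, against 9.81% of all genes called higher. Without the first IL-1β + LOXL2 replicate of the layer, 2 were called higher and 4 lower in SLC, and 2 higher and 3 lower in MLC. The shares of all genes in those fits were 31.0% higher and 30.8% lower in SLC, and 23.7% higher and 24.4% lower in MLC. The libraries were made by poly-T selection, and mitochondrial transcripts carry short poly-A tails or none.

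ND2 had normalized counts in SLC of 5200.2, 5052 and 4739 with IL-1β and 4663, 1928 and 2933 with IL-1β + LOXL2. The treatments were apart, with the first replicate closest to the IL-1β libraries (log2 fold change -0.65, standard error 0.29, edgeR adjusted p = 0.125). In MLC, ND2 had 7659.8, 6934 and 7290.1 against 6556, 6149 and 4974, and a log2 fold change of -0.31 (standard error 0.11, edgeR adjusted p = 0.0516). ND4 had log2 fold changes of -0.32 in SLC (edgeR adjusted p = 0.139) and -0.18 in MLC (edgeR adjusted p = 0.128). ND5 had -0.53 (edgeR adjusted p = 0.126) and -0.19 (edgeR adjusted p = 0.143). ND1 went the other way, with 1053, 912 and 1035 normalized counts with IL-1β and 1168, 2171 and 1674 with IL-1β + LOXL2 in SLC (log2 fold change 0.74, standard error 0.21, edgeR adjusted p = 0.0706) and 0.23 in MLC (edgeR adjusted p = 0.166). ND3, a gene with few reads, had 91.8, 84.0 and 71.8 with IL-1β and 110.0, 138 and 117 with IL-1β + LOXL2 in MLC, a rise of 0.55 (standard error 0.18, edgeR adjusted p = 0.0452). ND6, which is encoded on the other strand, had -0.05 in SLC (edgeR adjusted p = 0.714) and 0.04 in MLC (edgeR adjusted p = 0.763).

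Under IL-1β, 2 of the 7 ND genes were called between layers, against 25.6% of all genes, and with LOXL2 5 were, against 28.9% of all genes. With LOXL2, ND2, ND4 and ND5 were higher in MLC, by 0.89, 0.62 and 0.74 on the log2 scale (edgeR adjusted p = 0.012, 0.00167 and 0.0101), and ND1 and ND4L were lower, at -0.67 and -2.39 (edgeR adjusted p = 0.0164 and 0.00266). Under IL-1β, ND4 was higher in MLC, with 8123, 8323 and 8527 normalized counts in SLC and 11848, 11950.5 and 11059.5 in MLC (log2 difference 0.50, standard error 0.12, edgeR adjusted p = 0.0076). ND4L was lower in MLC, with 439.8, 504 and 406 in SLC and 68.2, 36.5 and 29.7 in MLC (log2 difference -3.32, standard error 0.46, edgeR adjusted p = 0.000183). ND4L and ND4 are transcribed together, and in the annotation ND4L (mitochondrial genome, 9878 to 10174) overlaps the start of ND4 (10168 to 11545), as ND5 (11748 to 13568) overlaps ND6 (13552 to 14079). How reads over these overlaps were assigned is not given in the sources used here, so the counts of ND4L, ND4, ND5 and ND6 are uncertain.

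**Figure D4:**
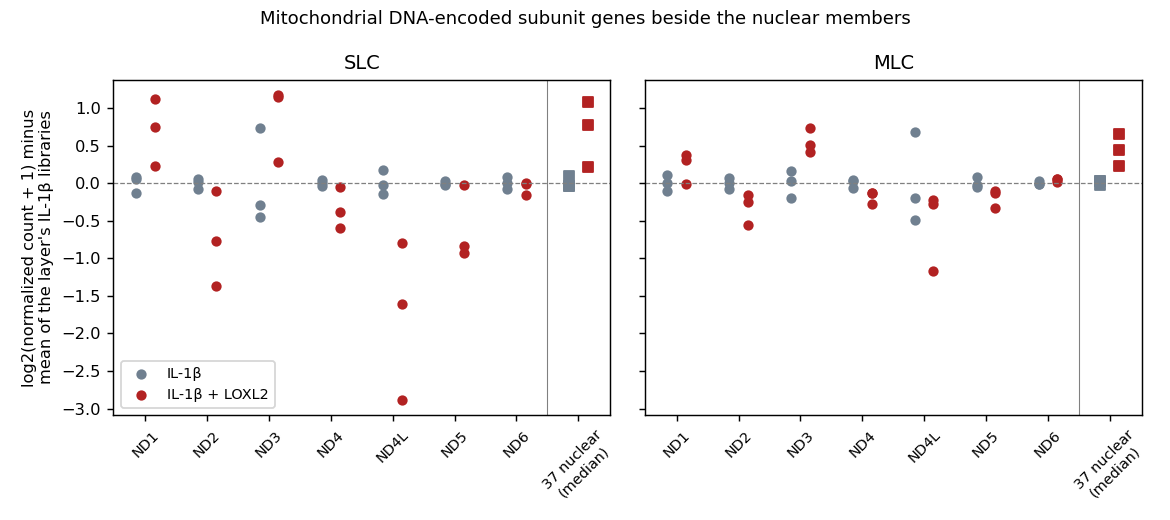
Each circle is 1 library, as log2(normalized count + 1) minus the mean of the IL-1β libraries of the layer, for the 7 mitochondrial DNA-encoded ND genes. Squares are the median of the 37 nuclear genes. With IL-1β + LOXL2, the SLC squares lie at 0.21, 1.08 and 0.77, while ND2, ND4, ND4L and ND5 lie below 0 in all 6 IL-1β + LOXL2 libraries.

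Genes that build, maintain or regulate complex I were read from lists drawn from general knowledge. Of 19 assembly factors, 16 were in the tables. In SLC, 15 of the 16 had a positive log2 fold change, with a median of 0.40 and none called. In MLC, 13 had a positive one, with a median of 0.21, and 3 of the 16 rose, against 9.81% of all genes called higher. Without the first IL-1β + LOXL2 replicate of the layer, 12 were called higher in SLC and 7 in MLC, against the 31.0% and 23.7% of all genes given above. The 3 genes were NDUFAF3, which acts in Q module assembly, at 0.51 (edgeR adjusted p = 0.0283), NDUFAF8 at 0.51 (edgeR adjusted p = 0.0415) and FOXRED1 at 0.40 (edgeR adjusted p = 0.0429). NDUFAF1 and NDUFAF2 had the larger values of 0.57 (edgeR adjusted p = 0.0761) and 0.55 (edgeR adjusted p = 0.0866) but were not called. At the low end in MLC were NDUFAF7, a mitochondrial methyltransferase, at -0.04 (edgeR adjusted p = 0.851), NUBPL, which delivers iron-sulfur clusters, at -0.02 (edgeR adjusted p = 0.954), and TMEM186 at -0.01 (edgeR adjusted p = 0.976).

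The list of regulators of nuclear respiratory genes held 10 genes. In SLC, 9 had a negative log2 fold change and none was called, and in MLC, where 9 could be tested, 7 had a negative one and 2 fell, against 11.8% of all genes called lower. Several of these genes are long, and long genes were lower with LOXL2 in general. When each library's trend on gene span was removed, 5 of 10 had a negative value in SLC and 5 of 9 in MLC, with medians of -0.07 and -0.01, and none was called. Without the first IL-1β + LOXL2 replicate of the layer, 5 were called lower and 1 higher in SLC and 3 lower in MLC. In those fits 30.8% of all genes were called lower and 31.0% higher in SLC, and 24.4% were called lower in MLC. GABPA, the DNA-binding subunit of NRF2, had 980.1, 945 and 1006 normalized counts with IL-1β and 856, 699 and 689.7 with IL-1β + LOXL2 in MLC. The treatments were apart, and GABPA fell by 0.39 on the log2 scale (standard error 0.11, edgeR adjusted p = 0.0285). PPARGC1B, a coactivator of respiratory genes, had a log2 fold change of -0.89 in MLC (standard error 0.28, edgeR adjusted p = 0.0426). In SLC, GABPA had -0.57 (standard error 0.15, edgeR adjusted p = 0.0706). NRF1, a transcription factor for many complex I genes, had -0.17 in SLC (edgeR adjusted p = 0.251) and -0.25 in MLC (edgeR adjusted p = 0.132), which turned to 0.24 and 0.03 without the span trend (NRF1 spans 127293 bases). TFAM, a factor in the transcription and packaging of mitochondrial DNA, had -0.38 (edgeR adjusted p = 0.108) and -0.20 (edgeR adjusted p = 0.27). ESRRA, a nuclear receptor of energy metabolism, was the regulator with a positive value in SLC, at 0.30 (edgeR adjusted p = 0.11), and had 0.13 in MLC (edgeR adjusted p = 0.357). The coactivator PPARGC1A differed between layers. It had between 59.0 and 110.0 normalized counts in the SLC libraries and at most 7.87 in the MLC libraries, a log2 difference under IL-1β of -3.90 (standard error 0.37, edgeR adjusted p = 8.86e-06). Among 5 mitochondrial proteases, 2 rose in MLC, against the 9.81% of all genes, and none was called in SLC. CLPP, part of the matrix protease that turns over the N module, rose by 0.52 (edgeR adjusted p = 0.0259) and LONP1 by 0.29 (edgeR adjusted p = 0.0405). Without the first IL-1β + LOXL2 replicate of the layer, 3 proteases were called higher in both layers, and 1 was called lower in SLC and 2 in MLC. The shares of all genes there were 31.0% higher and 30.8% lower in SLC, and 23.7% higher and 24.4% lower in MLC.

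Gene length moved with the LOXL2 effect across all genes and is given beside it. Over all tested genes, the log2 fold change and the genomic span of the gene, introns included, had a Spearman rho of -0.49 in both layers, as a description across genes of the same libraries. Genes of short span were higher with LOXL2 and genes of long span lower. The 37 complex I genes span a median of 7617 bases, against 20774 for the tested SLC genes and 21271 for the MLC genes. Among the 37 genes, rho was -0.43 in SLC and -0.29 in MLC. When each library's trend on span was removed, the 37 genes had medians of 0.54 for SLC and 0.33 for MLC, none was called in SLC (34 with an unadjusted p under 0.05, against 39.2% of all genes), and 19 were called higher in MLC, against 7.80% of all genes. In the same fit for MLC, 1 assembly factor (NDUFAF2) and 1 protease (LONP1) were called higher, and ND2, ND4 and ND5 were called lower, against 6.86% of all genes called lower. The trend was fitted over all genes, and its removal lowers the log2 fold change of short genes, which the ND genes are. Their median in MLC moved from -0.18 to -0.40, so the ND calls cannot be read apart from the adjustment. The goat LOXL2 gene turned to 0.14 in SLC and 0.21 in MLC, without being called.

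Single genes differed in how far they lay from the trend. NDUFS4 has the longest span of the 37 at 113931 bases, and NDUFA10, an accessory subunit related to nucleoside kinases, follows with 38934. Both were nevertheless higher with LOXL2, and without the trend NDUFS4 was at 1.11 in SLC and 0.83 in MLC on the log2 scale. NDUFS1, next in span with 33451 bases, was lower, and stayed so without the trend, with -0.16 in SLC and -0.09 in MLC, without being called. NDUFV3, with 11591 bases, had 0.14 in SLC and 0.13 in MLC without the trend. With the trend kept, NDUFS1 and NDUFV3 lay within the quartiles of all tested genes of like span in both layers.

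**Figure D5:**
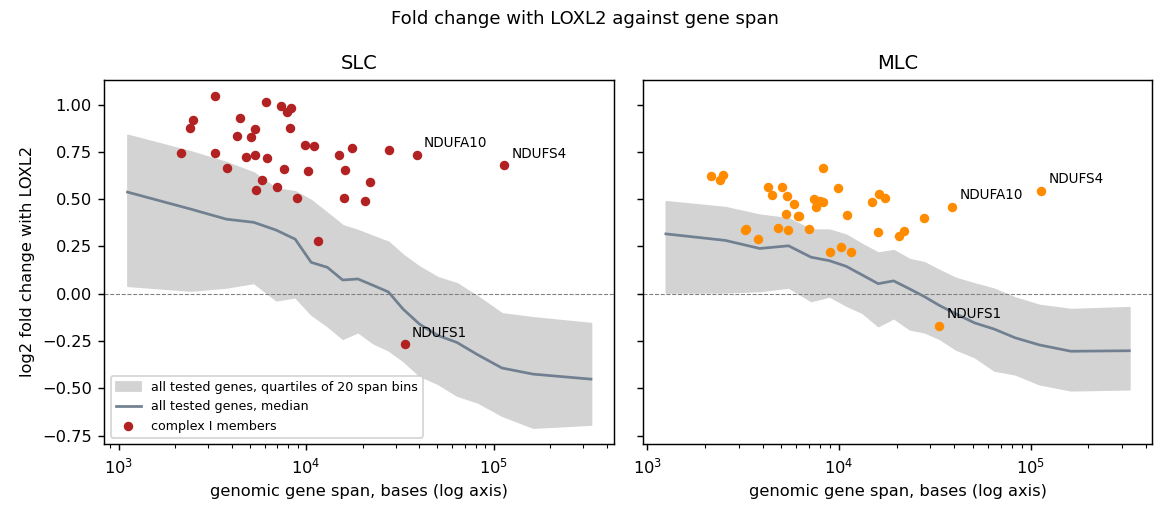
Log2 fold change with LOXL2 against genomic gene span in bases (log axis) in each layer. The grey line and band are the median and quartiles of all tested genes in 20 bins of equal gene number, and points are the 37 complex I genes. Most points lie above the band, whereas NDUFS1 lies within it in both layers.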

How the data were processed

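RNA-seq of cultured goat TMJ cells was analysed in 12 libraries (SLC and MLC, IL-1β and IL-1β + LOXL2, 3 each). For each layer, the authors deposited one table of raw read counts by gene, without normalization. Per the labels and the paper's methods, poly-T selected RNA was sequenced paired-end, trimmed, mapped with HISAT2 to goat ARS1.2 and counted with featureCounts. The settings for strand and for reads matching several genes are not given in the sources used here, and the kit for RNA extraction is named differently in the labels and the paper. Reads of NDUF pseudogenes could therefore be split from or added to these genes. The 37 genes were matched by symbol to the RefSeq annotation of ARS1.2, from which all coordinates and spans come. No sequences were used here.

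Counts were filtered with filterByExpr (at least 10 counts, total of at least 15), scaled by TMM and fitted in R 4.3.3 with edgeR 4.0.16's glmQLFit and glmQLFTest. P-values were adjusted over all genes tested by Benjamini-Hochberg, at a threshold of 0.05. The 6 libraries of each layer were used for LOXL2 effects and all 12 for layer differences and the interaction. Standard errors were taken from each log2 fold change and its F statistic, as their ratio after a square root of F. Normalized counts are DESeq2 1.42.0 median-of-ratios values over 12 libraries. They compare libraries, not genes, since transcript length was not used. An exact permutation test of 3 against 3 libraries cannot go below 0.1, so single genes were judged by the fit. The members, the gene lists and the roles were chosen with earlier results of these data known. Named in the text are the core genes, the 5 highest and 5 lowest genes with LOXL2 in each layer, the 3 with the largest interaction and the 3 with the largest layer difference under each treatment, NDUFA4, NDUFAB1, the ND genes, 5 regulators, and the 3 highest and 3 lowest assembly factors in MLC. NDUFA6, NDUFA10, PPARGC1B, CLPP, LONP1, COL11A1, COMP, and NDUFAF3 and FOXRED1 where outside this rule, were named after their values were seen. One gene that this rule names is counted in the totals but not reported here.

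Replicate numbers come from the labels. Deviations of same-numbered libraries from their group means correlated at 0.31 to 0.75 between SLC and MLC with LOXL2, so the numbers pair those libraries by the rule used (all over 0.1). In the other comparisons they did not. The pairing with LOXL2 was partial, since 4 of 6 libraries were closest to their own number. The second SLC replicate correlated at 0.61 with the third MLC replicate, against 0.31 with the second. No replicate pair was a duplicate (lowest chi-square over its degrees of freedom 2.25). On simulated counts with 200 changed genes, the fit recovered 200 in SLC (14103 genes, 6 false calls), 199 in MLC (13664 genes, 15 false calls), 199 for the layer difference (14534 genes, 12 false calls) and 191 for the interaction (14534 genes, 9 false calls), all at a simulated log2 change of 1. The simulated recovery does not measure the power of the fit in the real libraries. In SLC that fit called 0 of 14103 genes at an edgeR adjusted p under 0.05. NDUFA3 and NDUFB4, with log2 fold changes of 1.04 and 1.01, were both at 0.0706. The SLC IL-1β + LOXL2 replicates differed by a chi-square per degree of freedom of up to 167.6. Alternatives were other size factors, filters, DESeq2's test, a replicate block, other sets of libraries and each library left out. Removal of the gene-span trend by a lowess offset (smoother span 0.3) was also used.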

Additional observations from a re-analysis of the deposited data

How the results depend on the processing

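None of the 37 complex I genes changed the direction of its log2 fold change with LOXL2 under any alternative in either layer, and the number of calls was less stable than the direction. Called members were 35 in SLC with DESeq2 and 35 in the fit of all 12 libraries (main 0), and 0 in MLC in the fit of all 12 libraries (main 27). Of all genes, 16.0% were called higher in SLC with DESeq2. The fit of all 12 libraries called 22.5% higher in SLC and 0% in MLC. Leaving out single libraries gave 0 to 37 calls in SLC (median log2 fold change 0.53 to 0.93) and 0 to 37 in MLC (0.33 to 0.55). The 37 came with 8849 of 14334 genes called in SLC and 6653 of 13838 in MLC. In the fits with 0 calls, 5 in SLC and 3 in MLC, no other gene was called either. Between layers under IL-1β (main 0), DESeq2, the replicate block and the removed span trend each gave 1 call and the fit on 6 libraries 7. Of all 14534 genes, 4052 were called in either direction with DESeq2, 4013 with the block and 4290 without the span trend. The fit on 6 libraries called 6548 of 13965 genes. Single libraries left out gave 0 to 2 calls, and the 2 came with 5051 of 14718 genes called. The median moved to -0.043 without the span trend and to between -0.011 and 0.047 without single libraries. Between layers with LOXL2 (main 4), the fit on 6 libraries gave 0, against 962 of 14085 genes called lower. The removed span trend gave 12, all lower in MLC, against 2598 of 14534 genes called lower. Single libraries left out gave 0 to 27 (median -0.48 to -0.099), and the 27 came with 24.2% of all genes called lower. For the interaction (main 0) no alternative gave a call, and the median ranged from -0.53 to -0.059 without single libraries. Fits without the first LOXL2 replicate of both layers, and the fit on 6 libraries with a replicate block, were chosen after seeing the data. The former gave 26 calls between layers with LOXL2 (median -0.43, 22.6% of all genes called lower) and an interaction median of -0.39. The latter gave 6 calls (13.2% of all genes called lower). The replicate block on all 12 libraries gave 5, all lower in MLC, against 2241 of 14534 genes called lower. Within layers same-numbered libraries correlated at -0.32 to 0.25 in SLC, where 2 of 6 libraries were closest to their own number, and at -0.10 to 0.19 in MLC, where 3 of 6 were. The block gave 0 calls in SLC (none of 14103 genes), 30 in MLC and 0 for the interaction. The 30 were all higher, against 1848 of 13664 genes called higher in that fit. Other genes turned sign at small values. Without the span trend these were, in SLC, PPARGC1A (0.15), NRF1 (0.24), NUBPL (0.36) and TMEM186 (-0.077), and in MLC, ND1 (-0.021), ND6 (-0.20), NRF1 (0.033), ESRRA (-0.0093) and NUBPL (0.27). With a library left out they were, in SLC, ND6 (-0.096 to 4.8e-05), PPARGC1A (-0.39 to 0.0035) and NUBPL (-0.19 to 0.078), and in MLC, NDUFAF7 (-0.11 to 0.036), NUBPL (-0.19 to 0.10) and TMEM186 (-0.11 to 0.075). None of these was called. The calls often differed where an alternative used fewer libraries or another estimate of the spread. The cause of these differences was not tested. Genes of few reads, such as ND3 and ND4L, are limited by depth.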
